A study of Arabidopsis thaliana with 18 samples.

Results

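CMP, a compound that the labels give only by this code name, was set against its solvent acetone after 4 h in root cultures of Arabidopsis thaliana. The comparison rests on 3 arrays labelled CMP at 4 h and 3 labelled acetone at 4 h, 6 of the 18 arrays of the series. Its members are the probe sets, the groups of short probes that stand for a gene, that lay above the 40th percentile of their array in at least 3 of these 6 arrays. They number 14131 of the 22746 probe sets that are no controls. The series title names the action of the herbicide safener fenclorim as its subject, and the other groups are fenclorim at 4 h and acetone, fenclorim and CMP at 24 h. All groups are wild-type Col-0 roots grown in the dark at 25 °C in Gamborg's B5 medium and used at an age of 14 days, so they share genotype, age and medium. The labels state no dose for either compound. They number the replicates 1 to 3 but do not call them separate cultures. The spread that a p-value is measured against is therefore that of these arrays and could be technical alone.

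Plants dispose of foreign and reactive compounds in stages. Cytochromes P450, carboxylesterases and reductases expose or change a reactive group, glutathione transferases and UDP-glycosyltransferases attach glutathione or sugar, and transporters move the conjugates into the vacuole or out of the cell. Root growth depends on loosening and rebuilding the cell wall, through expansins, xyloglucan endotransglucosylases and endoglucanases, and on microtubules that guide cellulose deposition.

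After 4 h of CMP, genes of sugar conjugation, calcium sensing, immune signalling and autophagy were among the increases. Genes of cell wall loosening, wall polysaccharides and tubulin were among the decreases. Glutathione transferases (3 higher and 4 lower of 9) and carbonyl reductases and dehydrogenases (4 and 4 of 11) went both ways. Each fold that follows is the ratio of the geometric mean signals of 3 arrays per group. The secreted protease gene SBT3.3 rose 570.4-fold, the glutathione transferase gene GSTU25 103-fold and the calmodulin-like gene CML37 34-fold. The expansin gene EXPA8 fell 13.5-fold and TBL45, of a family that acetylates wall polysaccharides, 8.42-fold. The first 3 of these started from acetone signals below the 40th percentile of their arrays, so their folds are uncertain. With an offset of 18.1, the mean 40th percentile of the arrays, added to all signals, their log2 changes were 5.94, 4.76 and 3.14 in place of 9.16, 6.69 and 5.09.

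Array facts bear on all values. The deposited signals had the same trimmed mean, 100.01, on all 6 arrays, but the median signal was 35.2 to 38.9 with acetone and 27.8 to 33 with CMP. CMP replicate 2 stood apart from the other CMP arrays, with the lowest median, a mean log2 signal of the spiked poly-A controls of 6.77 against 5.34 and 5.54, and a second principal component score of -39.52 against 17.12 and 20.76. The overall counts are therefore also given without it, and most list counts where they differ. The acetone arrays spread as well: replicates 1 and 3 had the lowest correlation within a group, 0.93 over all members, against 0.949 for CMP replicate 2 with its own group, and their second component scores were 35.12 and -24.88. Of the 65 cell type markers listed, 6 were named on the array and 3 passed the filter, so the labelled tissue could be checked only in part. The root hair expansin EXPA18 had signals of 21.6, 26.6 and 52.6 with acetone and 7.21, 10.8 and 10.5 with CMP, the cortex marker JKD 31.45 to 39.96 and 8.49 to 22.19, and rubisco activase RCA, a marker of photosynthetic tissue, 1765 to 2444 and 1323 to 1498. JKD was lower with CMP (log2 change -1.11 ± 0.36, adjusted p = 0.0208), and neither EXPA18 (adjusted p = 0.109) nor RCA (adjusted p = 0.0542) passed the test. In RNA of whole cultures, fewer cells of a type and less RNA per cell cannot be told apart.

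A probe set was called where limma's adjusted p, over all 14131 members and with the spread shared by all 18 arrays, was under 0.05. With CMP 2044 members were higher, 14.5% of those tested, and 3426 were lower, 24.2%. List counts below are to be read beside these shares. Large changes were mostly increases: 285 members rose and 57 fell at least 8-fold, and 61 rose and 4 fell at least 32-fold. The arrays of the groups did not overlap for 1976 of the higher and 3267 of the lower members, against 49.1% of all members. The median member changed by -0.25 on the log2 scale. Centring each array on its median moved this value by 0.29 to 0.04 and turned the split from 37.4% higher among called members to 65.2%, with 2916 higher and 1557 lower. Without CMP replicate 2 there were 1959 higher and 2912 lower members, of which 1843 and 2706 were also called with it. The filter was passed through the CMP arrays only by 337 members and through the acetone arrays only by 200, which favours a difference. With these left out, and CMP replicate 2 kept, 1745 were higher and 3217 lower. A gene named below that passed in this way is described by its values, and its adjusted p adds no support. Such a gene has the 3 signals of 1 group below the 40th percentiles of their arrays, 19.4 to 21.9 with acetone and 15.6 to 18.3 with CMP.

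**Figure D1:**
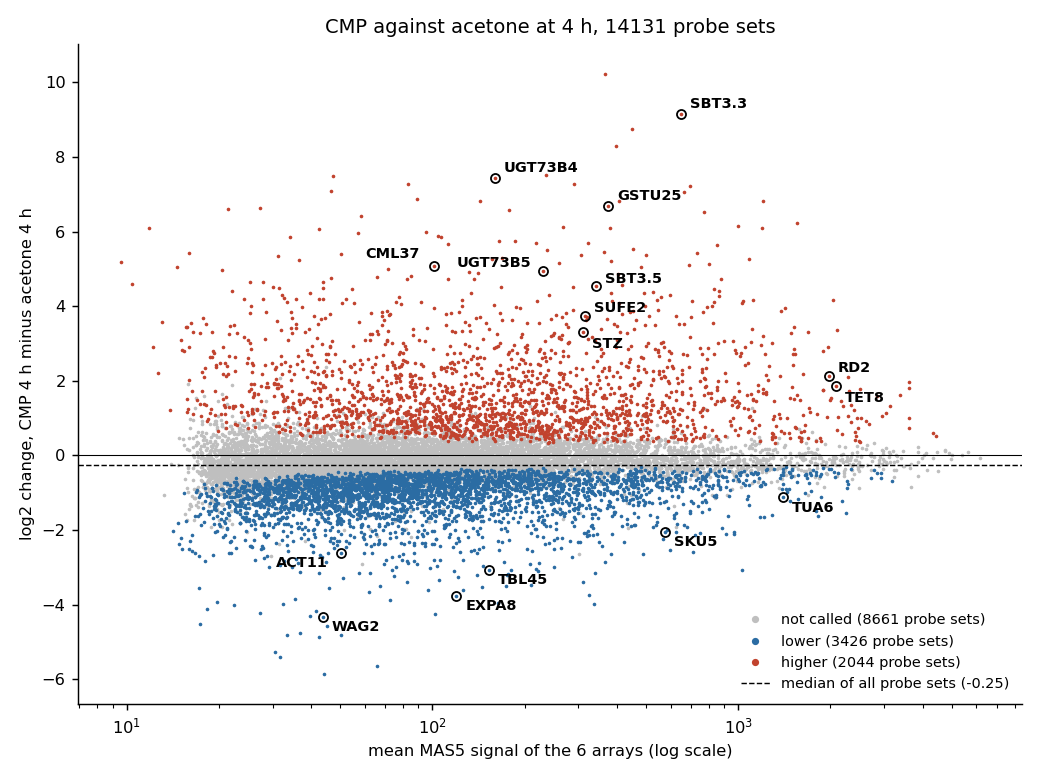
Log2 change with CMP at 4 h (vertical axis) against the mean MAS5 signal of the 6 arrays (horizontal axis, log scale) for 14131 probe sets. Red points were called higher (2044), blue lower (3426) and grey not called (8661), circles mark genes described in the text, and the dashed line is the median of -0.25. The largest changes are increases.

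UDP-glycosyltransferases, which attach sugars to hormones, phenolics and foreign compounds, rose in larger number than they fell. Of 51 named on the array 31 were tested, 16 were higher and 3 lower, with a median change of 0.54 beside -0.25 for all members. Of the 31, 6 passed through the arrays of 1 group only and so had to differ, and with all such probe sets left out 10 were higher. Without CMP replicate 2, 13 were higher and 2 lower, and after median centring 16 and 1. UGT73B4 gave signals of 0.52, 1.09 and 9.68 with acetone and 435, 259.5 and 254 with CMP, a log2 change of 7.44 ± 0.74 (standard error of the fit, 3 arrays per group, adjusted p = 8.13e-07). Signals are given here and below in the order of replicates 1, 2 and 3, and every value after ± is such a standard error on the log2 scale. Its neighbour on the chromosome, UGT73B5, gave 9.97, 17.7 and 16.4 with acetone and 519, 463 and 356 with CMP, a change of 4.95 ± 0.30 (adjusted p = 2.58e-09). Every CMP array of both genes was above every acetone array, but the acetone signals lay below the 40th percentile of their arrays (19.4 to 21.9), where log2 folds are uncertain. With the offset of 18.1 the changes were 3.92 and 3.81. The same limit holds for every increase below whose acetone signals lie under 20, and for every decrease whose CMP signals do.

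Several of the higher transferases act on hormones. UGT74F1, which glucosylates salicylic acid, rose from 2.6, 2.16 and 1.26 to 45.3, 28.5 and 53.1 (4.41 ± 0.48, adjusted p = 1.9e-06), again from low signals (1.57 with the offset). UGT71B6, which glucosylates abscisic acid, changed by 3.99 (1.54 with the offset) and UGT76B1, which acts on isoleucic acid and salicylic acid, by 1.83. UGT87A2 was already measured well with acetone, at 113, 61.1 and 69.4, and reached 947, 896 and 653 with CMP (3.39 ± 0.21, adjusted p = 3.14e-09), an increase larger than the spread of either group. The neighbouring genes UGT73D1 and UGT73C7 rose by 4.20 and 3.28, and UGT73B1 by 2.75. UGT74F1, UGT71B6, UGT73D1 and UGT73C7 passed through the CMP arrays only, so the filter favoured a difference. UGT84A3, which makes glucose esters of hydroxycinnamic acids, rose by 2.27 and UGT76E11 by 1.54. IAGLU, a glucosyltransferase of the auxin indole-3-acetic acid, rose from 90.6, 178 and 153 to 593, 468 and 425 (1.86 ± 0.22, adjusted p = 4.51e-06). The opposite direction was seen in UGT78D1, which attaches rhamnose to flavonols, with 42.6, 59.7 and 49.5 falling to 10.3, 17.3 and 5.48 (-2.34 ± 0.40, adjusted p = 0.000228), or -1.25 with the offset.

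The listed glutathione transferases did not move as a group. Probe sets with no gene in the annotation, or whose gene has no matching symbol or synonym, could not enter this or any other list. Of 14 named on the array 9 were tested, 3 were higher and 4 lower, with 2 lower after median centring, and the median change was -0.45. Of the 9, 2 passed through 1 group only, GSTU25 among them, so the filter favoured a difference. With all such probe sets left out 2 were higher and 3 lower. All 7 called belong to the plant-specific tau class, whose enzymes conjugate glutathione to herbicides. GSTU25 gave 3.62, 4.29 and 19.7 with acetone and 721, 1050 and 447 with CMP (6.69 ± 0.57, adjusted p = 1.21e-07), and 4.76 with the offset. GSTU22 rose from 48.6, 48.4 and 113 to 437, 783 and 559.5 (3.16 ± 0.41, adjusted p = 1.57e-05), and GSTU16 by 1.37 ± 0.25. GSTU20, the most brightly measured of the lower members, fell from 539.9, 686 and 376 to 187, 109.8 and 117 (-1.95 ± 0.41, adjusted p = 0.00138), with no overlap between the groups. GSTU26 lies next to GSTU25 on the chromosome and went the other way, from 49.1, 99.3 and 237 to 22.2, 24.7 and 22.4 (-2.19 ± 0.72, adjusted p = 0.0247). That call was lost after median centring and without acetone replicate 2 or 3 or CMP replicate 1 or 3, where the change was -2.22 to -1.60. GSTU28 (-1.28) was likewise not called after median centring, after quantile normalisation or without acetone replicate 2.

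Enzymes that change or remove reactive groups had members called in each direction. Among cytochromes P450, which oxidise substrates, 3 of 10 tested were higher and 1 lower, or 0 lower without CMP replicate 2 and 4 higher and 0 lower after median centring. CYP71B24 rose by 2.31 ± 0.27, CYP71B6 by 2.08 ± 0.28 and CYP71B23 by 1.95 ± 0.41. The carboxylesterase genes CXE20 and CXE16 rose by 2.37 ± 0.30 and 1.36 ± 0.16. Of 11 carbonyl reductases and aldehyde dehydrogenases 4 were higher and 4 lower, but 5 and 1 after median centring, so the balance of directions depends on the scaling. AER, an alkenal reductase that saturates the double bond of reactive aldehydes, rose from 64, 78.1 and 37.5 to 531, 278 and 219.6 (2.48 ± 0.31, adjusted p = 8.54e-06). The aldehyde dehydrogenase gene ALDH7B4 rose from 599, 501 and 612 to 1580, 1801 and 2102 (1.68 ± 0.21), and ALDH3F1 fell from 379, 340.4 and 216 to 133, 73.8 and 123 (-1.51 ± 0.28). Both changes exceeded the spread within the groups. AOR, a chloroplast reductase of similar substrates, changed by -0.77 ± 0.22, a call that was lost after median centring (-0.48) and without acetone replicate 2 (adjusted p = 0.0546).

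Redox, sulfur and transport genes followed. Of 12 antioxidant enzymes and redoxins 4 were higher and 3 lower, 5 and 1 after median centring, and 4 and 2 without CMP replicate 2, beside 14.5% higher and 24.2% lower among all members. The glutaredoxin GRX480, which binds TGA transcription factors, rose from 15.8, 15.5 and 33.1 to 110.5, 178 and 115 (2.71 ± 0.31, adjusted p = 3.81e-06). The methionine sulfoxide reductases went apart, MSRB3 changing by 1.39 ± 0.18 and MSRB5 by -1.53 ± 0.35. Glutathione reductase GR1 rose by 1.07 ± 0.23 and the monodehydroascorbate reductase ATMDAR2 by 0.93 ± 0.15. SUFE2, an activator of the cysteine desulfurase that supplies sulfur for iron-sulfur clusters, rose from 26.5, 48.8 and 60.3 to 639.8, 675 and 438 (3.75 ± 0.30, adjusted p = 5.81e-08), with every CMP array far above every acetone array. The organic cation transporter gene OCT5 rose from 33, 52.8 and 51 to 424, 436 and 206 (2.91 ± 0.29, adjusted p = 8.94e-07), while GTR1, a glucosinolate transporter, changed by -1.32 ± 0.17.

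**Figure D2:**
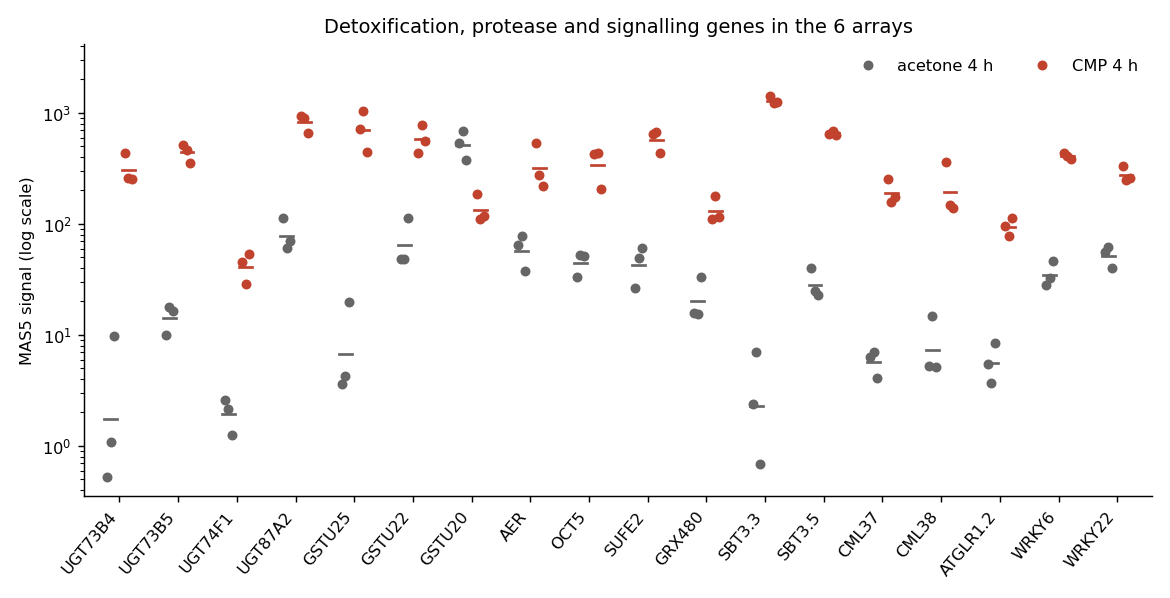
MAS5 signals (vertical axis, log scale) of 18 genes in the 3 acetone arrays (grey) and 3 CMP arrays (red) at 4 h, with a bar at the geometric mean of each group. The groups do not overlap for any gene shown, GSTU20 is the one shown that is lower with CMP, and SBT3.3 goes from under 10 to over 1000.

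Subtilases are secreted serine proteases. SBT3.3, linked to the priming of immune responses, gave 2.4, 7.03 and 0.689 with acetone and 1407, 1221 and 1254 with CMP (9.16 ± 0.51, adjusted p = 1.1e-09), and 5.94 with the offset. SBT3.5, which processes a pectin methylesterase, gave 39.8, 25 and 23 with acetone and 639.8, 692 and 639 with CMP (4.53 ± 0.22, adjusted p = 3.87e-10). The CMP signals of both were tightly grouped. The gene between them on the chromosome, AT1G32950, was also higher, with a log2 change of 3.57. Of 9 subtilases tested SBT3.3 and SBT3.5 were higher, and 2 others were lower (1 after median centring, 3 without CMP replicate 2), SBT4.12 among them (-1.54 ± 0.41). Among all members 14.5% were higher and 24.2% lower. Of the 9, 1, SBT3.3, passed through the CMP arrays only, so the filter favoured a difference.

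Calcium sensors and channels rose without a called decrease. Of 13 tested calmodulin-like proteins and glutamate receptor-like channels 9 were higher, also without CMP replicate 2, and the median change was 2.02. By limma's test 0 were lower, also at an unadjusted p under 0.05. Of these 13, 6 passed through the CMP arrays only and so had to differ: AT1G76640, ATGLR1.2, CML37, CML38, CML41 and GLR2.8. With all such probe sets left out 3 of 7 were higher, and the median of 2.02 includes these 6. CML37 rose from 6.28, 7.08 and 4.06 to 254, 157 and 176 (5.09 ± 0.30, adjusted p = 1.78e-09) and CML38 from 5.3, 14.7 and 5.15 to 362, 148 and 138 (4.72 ± 0.48, adjusted p = 9.89e-07). Both had acetone signals below the 40th percentile in every array, and the offset gave 3.14 and 3.04. AT1G76640, the neighbour of CML38 and listed with a calmodulin-like synonym, rose by 6.61 ± 1.28 and by 1.59 with the offset. CML41 rose by 2.72 ± 0.34, CML23 by 2.02 ± 0.26 and CML42, with acetone signals above the 40th percentile, from 126, 111 and 85.5 to 336, 314 and 232 (1.46 ± 0.20). Among the channels ATGLR1.2 rose from 5.45, 3.65 and 8.54 to 95.2, 77.8 and 112 (4.08 ± 0.30, adjusted p = 3.1e-08). GLR2.8 and GLR2.7, which adjoin each other on the chromosome, rose by 2.92 ± 0.61 and 1.73 ± 0.40. Leaving out acetone replicate 3 lowered the change of GLR2.8 to 1.92, and the offset to 0.96.

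Single genes of immune perception and its control rose. Of 8 defence genes 4 were higher, SBT3.3 and SBT3.5 among them, and 1 lower. Of these 8, 2 passed through 1 group only, SBT3.3 among them, so the filter favoured a difference. Of 8 PUB and ATL ubiquitin ligases 2 were higher, beside 14.5% higher and 24.2% lower among all members. Of the 3 receptor kinase genes tested EFR and BIK1 were called and FER, the receptor of RALF peptides, was not (-0.19). Of these 3, 1, EFR, passed through the CMP arrays only, so the filter favoured a difference. EFR, the receptor of bacterial elongation factor Tu, rose from 7.35, 5.88 and 5.27 to 41.7, 25.7 and 32 (2.41 ± 0.31, adjusted p = 1.14e-05), and BIK1, a kinase that relays the signal of such receptors, from 274, 199 and 180.3 to 474, 435 and 363 (0.98 ± 0.20). The ubiquitin ligase genes PUB24 and PUB23, which damp immune signalling, rose by 2.08 ± 0.16 and 1.66 ± 0.25. SAG101, a partner of the immune regulator EDS1, rose by 1.54 ± 0.41. In no list, and chosen for their values, chitinase CHI rose from 86.8, 37.5 and 41.4 to 168, 426 and 409 (2.59 ± 0.35, adjusted p = 2.15e-05) and the osmotin gene OSM34 from 624, 540.3 and 1066 to 1267, 3199 and 2142 (1.53 ± 0.33).

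Among transcription factors, WRKY6 rose from 28.1, 32.2 and 46.4 to 439, 411 and 381 (3.56 ± 0.25, adjusted p = 1.81e-08) and WRKY22 from 55.8, 62.5 and 40.1 to 333, 247 and 262 (2.42 ± 0.19, adjusted p = 5.22e-08). These were the 2 of 6 tested WRKY factors called, with 3 higher after median centring or without CMP replicate 2. STZ, a zinc finger repressor induced by many stresses, rose from 51.2, 64.1 and 54.2 to 521, 661 and 507 (3.31 ± 0.18, adjusted p = 7.8e-10). Of 13 bZIP factors 3 were higher and 2 lower, with 1 lower after median centring or without CMP replicate 2. Among all members 14.5% were higher and 24.2% lower. BZIP60, which is activated by unfolded proteins in the endoplasmic reticulum, rose from 241, 279 and 238 to 1328, 1452 and 1011 (2.31 ± 0.17, adjusted p = 2.43e-08), and BZIP28, a membrane-bound factor of the same response, by 0.85 ± 0.16. BZIP17, related to BZIP28, had a change of -0.37 ± 0.20 that did not pass the test (adjusted p = 0.144). BZIP61 fell from 142, 164 and 112 to 19.2, 19.7 and 20.4 (-2.80 ± 0.29, adjusted p = 1.31e-06). Of the 11 tested genes of the unfolded protein response as a whole 2 were higher and 1 lower, again beside 14.5% and 24.2% of all members.

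Protein and membrane turnover genes rose in part. Autophagy encloses cell content in a membrane to which the small protein ATG8 is coupled, and 5 of 11 tested autophagy genes, all of them ATG8 genes, were higher. By limma's test 0 were lower, also at an unadjusted p under 0.05, and after median centring 8 were higher. ATG8H rose from 78.6, 66.3 and 58.9 to 393, 189 and 299 (2.06 ± 0.36, adjusted p = 0.000246), ATG8E by 1.36 ± 0.23 and APG8A by 1.01 ± 0.18. Of 13 ESCRT and vacuolar sorting genes 5 were higher and 2 lower, with 1 lower after median centring or without CMP replicate 2. VPS60.1, of the ESCRT machinery that buds vesicles into endosomes, rose from 91.8, 76.4 and 70.4 to 449.8, 311 and 344 (2.20 ± 0.22, adjusted p = 6.66e-07) and VPS2.1 by 1.28 ± 0.25, while VPS9B, a Rab GTPase activator, changed by -1.25 ± 0.20. SEC1B, of a family that regulates membrane fusion, rose by 2.71 ± 0.40. Of the 23 exocyst and secretory genes in its list 3 were higher and 3 lower, or 6 and 1 after median centring. The chaperone gene Hsp70-2 rose from 243, 229 and 259.9 to 925, 945 and 958 (1.95 ± 0.15, adjusted p = 3.22e-08). Of the 9 chaperone and co-chaperone genes in its list 3 were higher and 3 lower. After median centring these were 4 and 0, and without CMP replicate 2 they were 4 and 1. Of 12 ubiquitin-specific protease genes tested 0 were called by limma's test, also at an unadjusted p under 0.05.

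In mitochondrial and central metabolism the increases lay in a few genes. Of 8 citrate, glyoxylate cycle and beta-oxidation genes 2 were higher, 5 after median centring, and 1 was higher and 1 lower without CMP replicate 2. Of 12 mitochondrially encoded genes 1 was higher and 1 lower, and 3 were lower without CMP replicate 2. Of these 12, 1 passed through 1 group only. In the breakdown of branched-chain amino acids, isovaleryl-CoA dehydrogenase IVD rose from 97, 64.2 and 136 to 392, 230 and 374 (1.77 ± 0.33) and MCCA, a subunit of methylcrotonoyl-CoA carboxylase, from 122, 86.2 and 126 to 502, 284 and 371 (1.77 ± 0.28). ETFQO and ETFBETA, which pass the electrons on, rose by 1.36 ± 0.25 and 1.23 ± 0.29, whereas ETFALPHA changed by -0.03 ± 0.17 with overlapping groups (adjusted p = 0.897). Of 7 tested genes of this list 4 were higher, 5 without CMP replicate 2, and 0 were lower by limma's test, also at an unadjusted p under 0.05. NDB2, a mitochondrial NAD(P)H dehydrogenase that bypasses complex I, rose from 30.5, 37.4 and 61.2 to 319, 389 and 269.9 (2.97 ± 0.26, adjusted p = 1.7e-07), while NDB1 of the same family was lower (-0.56). PPDK, pyruvate orthophosphate dikinase, rose from 130.2, 96.7 and 106 to 1104, 798 and 810.3 (3.02 ± 0.23, adjusted p = 4.05e-08), and DELTA-OAT, ornithine aminotransferase, by 0.98 ± 0.24.

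Hormone and dehydration genes were mixed. GH3.3 and GH3.17 both couple auxin to amino acids and went apart: GH3.3 rose from 29.8, 29.7 and 21.3 to 273, 264 and 302 (3.39 ± 0.33, adjusted p = 5.02e-07), and GH3.17 fell from 169, 209 and 483 to 46.6, 42.6 and 42.9 (-2.55 ± 0.46, adjusted p = 0.000353). The CMP signals of GH3.17 were nearly equal and lay below every acetone array. WAG2, a kinase that acts on auxin transporters, fell from 54.6, 125 and 68.3 to 1.18, 7.22 and 6.85 (-4.32 ± 0.69, adjusted p = 0.00011), a change of -2.07 with the offset. It passed through the acetone arrays only, so the filter favoured a difference. The gibberellin receptor gene GID1A changed by -1.13 ± 0.20, and ARL, which promotes organ growth, rose by 1.47 ± 0.23. Of 6 dehydration and abscisic acid genes 3 were higher. The dehydrin gene LTI30 rose from 22.9, 50.4 and 98.8 to 331, 659 and 389.6 (3.18 ± 0.62, adjusted p = 0.000682). RD2, a gene named for its response to desiccation, had even signals within each group, 762, 726 and 702 with acetone and 3167, 3240 and 3245 with CMP (2.14 ± 0.10, adjusted p = 3.33e-10). Caffeoyl-CoA methyltransferase CCOAMT rose by 2.43 ± 0.39 and HCT, a shikimate transferase of lignin synthesis, fell from 606, 707 and 665 to 161, 254 and 202 (-1.70 ± 0.16, adjusted p = 4.52e-07).

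**Figure D3:**
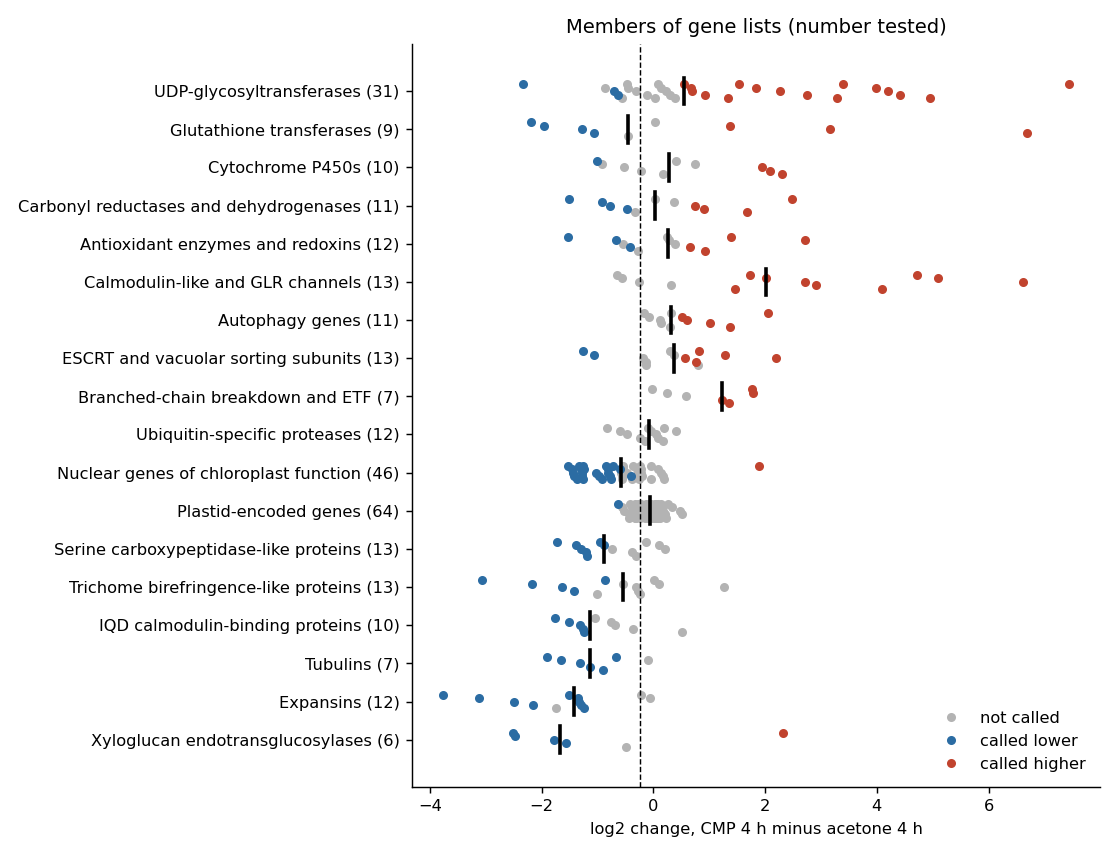
Log2 change with CMP at 4 h (horizontal axis) of each tested member of 18 gene lists, with the number tested in brackets. Red and blue points were called higher and lower, grey ones were not called, black bars are list medians and the dashed line is the median of all 14131 members, -0.25. Calmodulin-like and GLR genes have the highest median of the lists shown, 2.02, and xyloglucan endotransglucosylases the lowest, -1.68. Of the former 13 genes 6, and of the latter 6 genes 1, passed through 1 group only, so the filter favoured a difference.

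Wall-loosening genes fell. Of 12 tested expansins, which loosen the wall without cutting it, 9 were lower and 0 higher by limma's test, also at an unadjusted p under 0.05 (median -1.43). After median centring 6 were lower, and without CMP replicate 2, 8. Leaving out acetone replicate 3 or CMP replicate 1 each left 6 lower. Of the 12, 3 passed through 1 group only, and with all such probe sets left out 7 of 9 were lower. EXPA8 fell from 197, 286 and 181 to 10.6, 31.3 and 12.5 (-3.76 ± 0.63, adjusted p = 0.000171, -2.74 with the offset) and EXLA1 from 335, 249 and 244 to 103, 97.6 and 88.3 (-1.51 ± 0.26, adjusted p = 0.000228), and in both every CMP array was below every acetone array. EXPB3 changed by -2.16 ± 0.54, EXPA15 by -1.30 ± 0.30 and EXPA9 by -1.24 ± 0.28. EXLA2 changed by -3.12 ± 0.85, and by -2.17 with the call lost (adjusted p = 0.053) without CMP replicate 1. With the offset it changed by -1.57.

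Xyloglucan endotransglucosylases, which cut and rejoin the xyloglucan that ties cellulose fibres, divided. Of 6 tested 4 were lower and 1 higher, also after median centring and without CMP replicate 2. XTH16 fell from 402, 401 and 237 to 54.9, 57.7 and 66.3 (-2.50 ± 0.33, adjusted p = 1.65e-05). XTH33 and XTH32 had log2 changes of -2.47 ± 0.45 (-1.59 with the offset) and -1.57 ± 0.42. XTH33 passed through the acetone arrays only, so the filter favoured a difference. The exception is 1 of a pair of adjacent genes: XTH18 rose from 187, 181 and 122 to 1067, 629 and 754 (2.31 ± 0.42, adjusted p = 0.000393), and XTH19 beside it fell from 227, 283 and 247 to 144, 55.2 and 48.8 (-1.78 ± 0.33, adjusted p = 0.000437). The arrays of the groups did not overlap for either gene.

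Genes that build wall polysaccharides and their coats were lower as well. In a list of 27 tested wall polysaccharide genes 13 were lower and 0 higher by limma's test (median -0.84), with 16 and 1 at an unadjusted p under 0.05, 9 lower and 1 higher after median centring, and 12 lower without CMP replicate 2. TBL45 fell from 269, 314 and 232 to 30.9, 25.3 and 42.1 (-3.07 ± 0.26, adjusted p = 1.37e-07), and TBL25 from 639, 568 and 368 to 96.6, 150 and 101 (-2.17 ± 0.26). TBL38 had a change of -1.63 ± 0.20. The endoglucanase GH9C2 fell from 300, 306 and 293 to 30.1, 49.2 and 47.2 (-2.86 ± 0.42, adjusted p = 4.92e-05), and GH9B7 changed by -1.38 ± 0.22. CSLC5, of the family that makes the xyloglucan backbone, changed by -1.84 ± 0.19, and COB, which orients cell expansion in roots, fell from 988, 795 and 655 to 338, 372 and 328 (-1.21 ± 0.17). SKU5, a membrane-anchored protein of directional root growth, fell from 1134, 786 and 860.4 to 266, 159.9 and 259 (-2.04 ± 0.20, adjusted p = 7.72e-07), and THE1, a receptor kinase that senses wall integrity, from 211, 157 and 154 to 54.3, 40.9 and 48.5 (-1.85 ± 0.18, adjusted p = 7.72e-07).

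Among cytoskeleton genes the tubulins fell. Of 7 tubulins 6 were lower (median -1.13), also without CMP replicate 2, and 5 after median centring. TUB5 fell from 624, 756 and 588 to 160.2, 206 and 160.5 (-1.90 ± 0.20, adjusted p = 1.84e-06) and TUA6, the brightest tubulin named, from 1920, 2202 and 1636 to 728, 1078 and 849 (-1.13 ± 0.19). TUB1 and TUB7 changed by -1.65 ± 0.28 and -1.31 ± 0.20. TUA1 was the exception at -0.09 ± 0.17 (adjusted p = 0.703), with overlapping groups. ACT11, an actin gene, fell from 92, 90.03 and 76 to 12.2, 13.7 and 16.5 (-2.61 ± 0.26, adjusted p = 9.2e-07), or -1.69 with the offset. It passed through the acetone arrays only, so the filter favoured a difference. Of 3 actin, kinesin and myosin genes 1 was lower, of 5 NET actin-binding protein genes 1 (0 after median centring or without CMP replicate 2), and of 8 TRM microtubule-targeting protein genes 2 were lower and 1 higher. Of the 8 TRM genes 2 passed through 1 group only, so the filter favoured a difference. Of 10 IQD genes, whose proteins bind calmodulin and microtubules, 5 were lower, 6 without CMP replicate 2, iqd21 (-1.51 ± 0.25) and IQD30 (-1.31 ± 0.28) among them. Of these 10, 1 passed through 1 group only, and with all such probe sets left out 4 of 9 were lower. Of 11 cell plate, condensin and mitosis genes 3 were lower, near the 24.2% of all members, and 2 after median centring or without CMP replicate 2. PRL, which belongs to the MCM helicase of DNA replication, was 1 of these 3 (-1.19 ± 0.21). The mitotic kinase AUR1 changed by -0.80 ± 0.32, which did not pass the test (adjusted p = 0.0572).

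**Figure D4:**
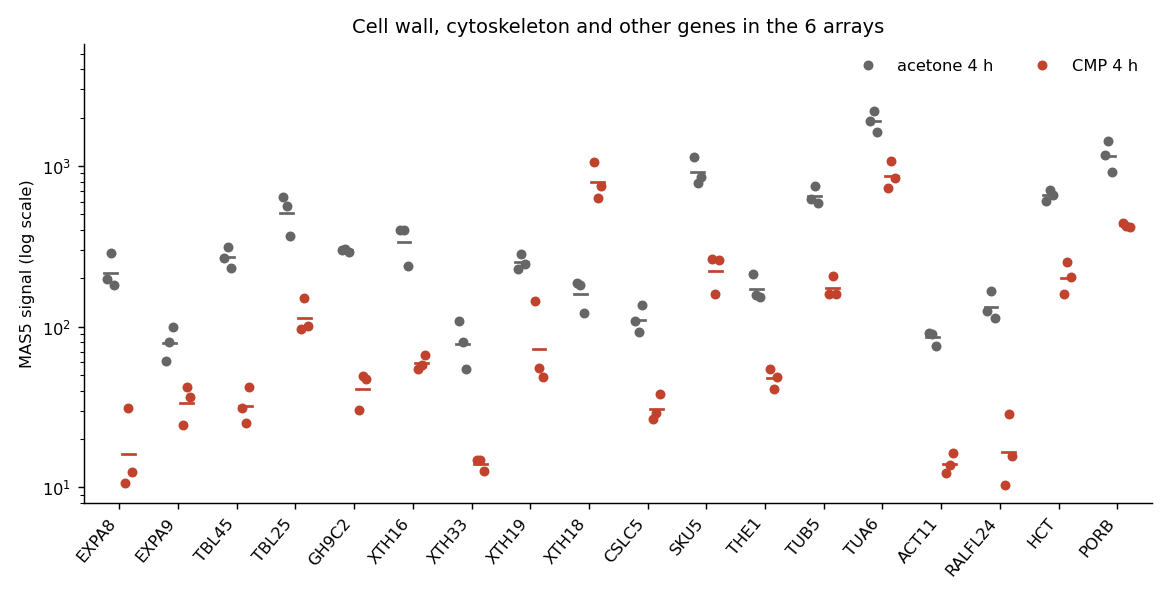
MAS5 signals (vertical axis, log scale) of 18 genes of the cell wall, cytoskeleton, peptide signalling, lignin and plastid in the 3 acetone arrays (grey) and 3 CMP arrays (red) at 4 h, with a bar at the geometric mean of each group. XTH18 is the one gene shown that is higher with CMP, and it stands beside its chromosomal neighbour XTH19.

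Peptide signals and tetraspanins had members in both directions. Of 9 RALF and CLE peptide genes and relatives 4 were lower and 1 higher, with 2 lower after median centring. The higher gene, RALFL18, passed through the CMP arrays only, so the filter favoured a difference. RALFL24 fell from 124, 166 and 112 to 10.4, 28.6 and 15.6 (-2.99 ± 0.41, adjusted p = 2.63e-05, -2.08 with the offset), RALFL34 changed by -1.24 ± 0.26, and RALFL18 rose from 6.15, 2.73 and 11.3 to 52.6, 46.7 and 51.1 (3.12 ± 0.53, adjusted p = 0.000188). Of 8 tetraspanins, membrane proteins with 4 spans, 2 were higher and 4 lower, with 3 lower after median centring and 5 without CMP replicate 2. TET8, found on extracellular vesicles, rose from 941, 794 and 958 to 3209, 3529 and 3104 (1.87 ± 0.14, adjusted p = 2.12e-08) and TET9 from 23, 15.6 and 15.8 to 131, 82.2 and 86.1 (2.45 ± 0.33). TET2 and TET7 changed by -1.62 ± 0.22 and -1.49 ± 0.23.

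Nuclear genes for chloroplast proteins were measured in these dark-grown roots. Of 46 tested 23 were lower and 1 higher, against 10 and 1 after median centring. Leaving out CMP replicate 2, acetone replicate 1 or acetone replicate 2 each left 15 lower. Of the 46, 2 passed through 1 group only, and with all such probe sets left out 21 of 44 were lower. PORB, a protochlorophyllide reductase, fell from 1172, 1442 and 924 to 442, 424 and 415 (-1.44 ± 0.27, adjusted p = 0.000446) and CaS, a thylakoid calcium-binding protein, from 525, 546 and 357 to 200.3, 198 and 135 (-1.42 ± 0.32). PRK of the Calvin cycle changed by -1.33 ± 0.29 and CHLI2, a subunit of magnesium chelatase, by -1.37 ± 0.27. The higher member was HEMA2, a glutamyl-tRNA reductase that starts haem and chlorophyll synthesis, which rose from 48.4, 38.8 and 46.3 to 216, 142 and 143 (1.88 ± 0.25, adjusted p = 1.53e-05). Of 64 genes encoded by the plastid itself 1 was lower and 0 higher by limma's test, 1 and 1 at an unadjusted p under 0.05, and 0 lower and 5 higher after median centring.

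Most of the named members bear a locus number and no symbol in the annotation used (6498 of 7585 with 1 gene), and among the 20 largest increases 17 do. The lack of a symbol does not mean that a gene has no known role, but none is stated here and the values are given alone. AT4G39670 rose from 15, 11.4 and 25.4 to 1969, 1361 and 1238 (6.51 ± 0.31), AT2G47950 from 10.1, 2.93 and 14.6 to 566, 496 and 513 (6.12 ± 0.47) and AT1G56060 from 27.1, 53.5 and 24.9 to 1855, 1716 and 1442 (5.65 ± 0.27). Of these 3, AT1G56060 had acetone signals above the 40th percentile of their arrays and no CMP signal near them. Among called members with 1 named gene and no overlap, the largest decreases were AT4G35320 from 70.5, 77.1 and 37.7 to 1.27, 3.27 and 0.637 (-5.41 ± 0.76, -1.97 with the offset) and AT4G16563 from 69.5, 51.1 and 58.5 to 1.07, 1.62 and 2.1 (-5.26 ± 0.35), which with the offset changed by -1.97.

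Fenclorim arrays of the same time allow CMP to be set against the safener, 1 pair of compounds at 1 time. With no dose in the labels, a difference of dose and a difference of compound cannot be told apart, and no structure is given for CMP. CMP and fenclorim differed in 1068 members, 7.56% of those tested, of which 540 were higher and 528 lower with CMP. The filter used no fenclorim array, so probe sets high with fenclorim alone were not tested. With the filter over all 18 arrays 543 were higher and 576 lower, and after median centring 453 and 561. The balance of directions therefore depends on the filter and the scaling. The count fell to 548 without CMP replicate 1, 612 without CMP replicate 3, and 561 and 707 without fenclorim replicates 2 and 1. The genes in the next paragraph kept their call without each of the 6 arrays.

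Calcium genes, XTH18, XTH19 and TET9 were among those higher with CMP than with fenclorim. CML37 had signals of 39.6, 50.6 and 31.5 with fenclorim and so lay 2.27 ± 0.30 higher with CMP on the log2 scale (adjusted p = 0.00017). ATGLR1.2 was higher by 2.09 ± 0.30, CML41 by 1.61 ± 0.34, CML23 by 1.33 ± 0.26, WRKY22 by 1.64 ± 0.19 and Hsp70-2 by 1.14 ± 0.15. XTH18 had 102, 192 and 209 with fenclorim, overlapping its acetone arrays, and CMP was higher by 2.32 ± 0.42 (adjusted p = 0.00259). XTH19 was lower than acetone with both compounds and less so with CMP, a difference of 1.79 ± 0.33. TET9 had 11.1, 14.2 and 32.3 with fenclorim and was higher with CMP by 2.50 ± 0.33 (adjusted p = 0.000174). In the other direction, AER had 1307, 1280 and 1254 with fenclorim and the difference CMP minus fenclorim was -2.01 ± 0.31 (adjusted p = 0.000612). It was -1.57 ± 0.30 for UGT73B5, -1.55 ± 0.30 for SUFE2 and -1.58 ± 0.29 for OCT5. Sulfite reductase SIR was 581, 484 and 539.7 with acetone, 478, 473 and 408 with CMP and 1580, 1685 and 1404 with fenclorim, a difference of -1.78 ± 0.14 (adjusted p = 2.6e-06). HCT and EXPA9 were lower with CMP than with fenclorim, with differences of -1.74 ± 0.16 and -2.29 ± 0.28. EXPA9 had 128, 172 and 201 with fenclorim, above all its acetone arrays, while its CMP arrays were below them.

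IAGLU was lower with CMP than with fenclorim (-0.99 ± 0.22, adjusted p = 0.00919), a call lost without CMP replicate 3. For GSTU25, GSTU22, UGT87A2 and UGT73B4 no difference between the compounds was called. The interval of CMP minus fenclorim was -1.86 to 0.53 for GSTU25 (adjusted p = 0.563), -0.78 to 0.98 for GSTU22, -0.78 to 0.10 for UGT87A2 and -3.24 to -0.10 for UGT73B4. The intervals of GSTU25 and UGT73B4 leave room for differences of over 2-fold, and that of UGT73B4 lies below 0 although its adjusted p was 0.204. Among the decreases no difference was called for TBL45 (-0.49 to 0.62), GH9C2 (-0.98 to 0.79) or WAG2 (-1.44 to 1.46).

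At 24 h CMP was compared with acetone arrays of its own time. Of the 2044 members higher at 4 h, 1590 were also higher at 24 h, 10 were lower and 444 were not called, and of the 3426 lower at 4 h, 2483 were also lower, 12 were higher and 931 were not called, where 17.9% of all members were higher and 26.8% lower. The change itself differed between the times in 477 members, 3.38%. For members higher at 4 h it was smaller at 24 h in 161 and larger in 31. For members lower at 4 h the decrease was smaller at 24 h in 37 and larger in 61. These members were chosen by their 4 h values, which the difference subtracts, so these splits support nothing by themselves. Without 1 of the 12 arrays the count of 477 became 188 to 422. It was 203 without acetone replicate 3 and 197 without CMP replicate 1 of 4 h, 258 and 213 without acetone replicates 2 and 3 of 24 h, and 188, 272 and 263 without CMP replicates 1, 2 and 3 of 24 h. GSTU25 was 17.6, 13.4 and 5.02 with acetone and 38, 37.7 and 24.3 with CMP at 24 h, a change of 1.63 ± 0.57 there and a difference of -5.07 ± 0.80 from 4 h (adjusted p of the difference = 0.00362). GSTU22 had a change of 0.35 ± 0.41 at 24 h, and CML23 of -0.04 ± 0.26 (adjusted p = 0.522 and 0.906). By contrast CML37 changed by 5.16 ± 0.30, PPDK by 3.51 ± 0.23 and SBT3.5 by 3.73 ± 0.22 at 24 h, and no difference from 4 h was called (adjusted p = 0.968, 0.518 and 0.2). The decrease of SKU5 at 24 h was -2.36 ± 0.20, also with no difference called, and the list of expansins had 8 of 12 members lower at 24 h.

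**Figure D5:**
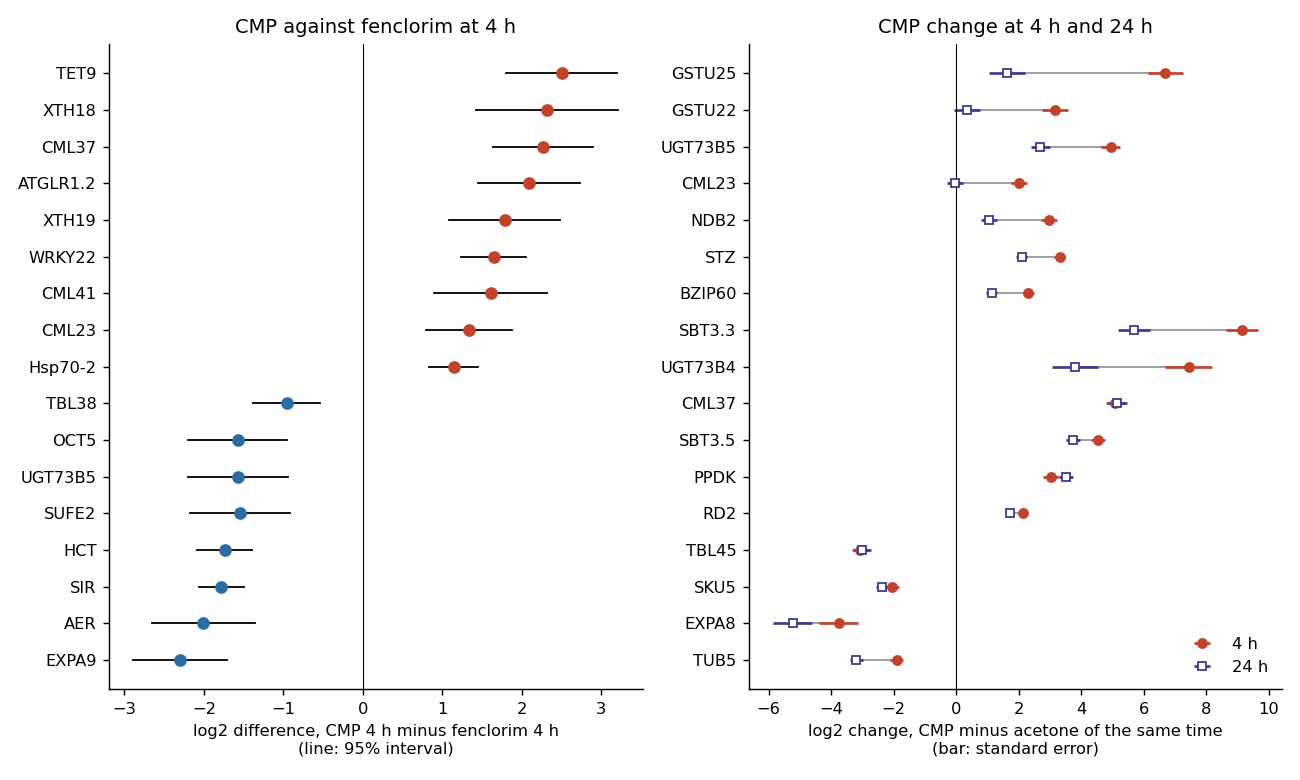
Left, log2 difference between CMP and fenclorim at 4 h with its 95% interval for 17 genes, red where CMP was higher and blue where it was lower. Right, log2 change with CMP against acetone of the same time at 4 h (red circles) and 24 h (open squares), with standard errors, for 17 genes. GSTU25, GSTU22 and CML23 lie far lower at 24 h than at 4 h, while the markers of CML37, PPDK and TBL45 lie close together.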

How the data were processed

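Total RNA was labelled with a 3′ in vitro transcription kit and hybridised to ATH1 arrays, 1 colour and 18 arrays, per the labels' protocols. The deposited value is an intensity, the MAS5 signal of each probe set, which the authors made in GCOS per the submitters' processing notes. Neither version nor scaling target is given in the sources used here. Each array of the comparison has a trimmed mean of 100.01 after leaving out 2% at each end, so arrays were scaled to 1 level before deposit. Signals were taken to log2 with no offset. limma 3.58.1 in R 4.3.3 fitted 1 mean per group over 6 groups (lmFit, eBayes with an intensity trend, 12 residual degrees of freedom), with no covariate, and p-values were adjusted by Benjamini-Hochberg over all 14131 members. Tables and figures were made in Python 3.11.15. The fit was tested on simulated data with known changes. MAS5 keeps low signals with large relative error, so folds from low signals are uncertain, and the number of arrays limits the precision.

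Probe sets were named through GEO's platform annotation, updated through the TAIR10.1 gene table: 7585 members had 1 gene, 304 several and 6242 were not listed. The TAIR10.1 table was also used for which genes adjoin. One probe set per gene, the brightest, stood for a gene in the 87 lists. The naming rule covers the 20 largest increases and 20 largest decreases without overlap among called probe sets with 1 annotated gene and a signal above the mean 40th percentile in the higher group, up to 4 called members of each list, and uncalled list members. The text describes a part of these genes, those with a known role first, and probe sets with no gene in the annotation can have larger changes. These genes lie outside that rule and were chosen after their values were seen: AOR, CHI, CHLI2, CML23, CML41, CML42, COB, CaS, EXLA1, EXPA15, EXPA9, GSTU16, GSTU28, IAGLU, OSM34, PPDK, PRK, SKU5, SUFE2, THE1, UGT71B6, UGT73B1, UGT73C7, UGT76B1, UGT76E11, UGT84A3, UGT87A2 and XTH32, besides AT1G32950 for its position. The members and lists were chosen with earlier results of these data known, so list counts and medians are descriptions with no test. The replicate numbers were checked for pairing. Deviations from the group means correlated by 0.29, 0.27 and -0.16 between the same numbers of both groups, and by -0.51 to 0.38 between unlike numbers. With 3 arrays per group these values cannot decide whether the numbers pair the arrays. The main fit used no pairing, and a replicate block was tried as another setting. The closing section gives the alternatives tried.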

Additional observations from a re-analysis of the deposited data

Results flagged for a closer look

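The change with CMP differed between 24 h and 4 h for 22 of the 145 genes examined for the text by limma's test of the difference itself. Many of the 145 were chosen for a large change at 4 h, which this difference subtracts, so the number and the mostly negative sign of these differences support nothing by themselves. Each value below is the change at 24 h minus that at 4 h on the log2 scale, so a negative value marks an increase that was smaller, or a decrease that was larger, at 24 h.

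Among conjugation genes the difference was -5.07 for GSTU25 (adjusted p = 0.00362), -2.81 for GSTU22, -2.26 for UGT73B5, -1.26 for IAGLU and -1.17 for UGT87A2. It was -3.46 for SBT3.3, -1.65 for OCT5, -2.07 for CML23 (adjusted p = 0.00619), -1.91 for NDB2, -1.22 for STZ and -1.18 for BZIP60. For genes known only by a locus number it was -4.07 (AT2G41730, a probe set that may cross-hybridise by its name), -1.67 (AT1G66090) and -1.64 (AT1G56060). In wall, membrane and cytoskeleton genes it was -2.50 for XTH18, -1.92 for TET9, -1.56 for TUB1, -1.29 for TUB5 and -1.24 for GH9B7, and it was -1.57 for PRK. The opposite sign was found for AT4G16563 (2.86, adjusted p = 0.00534) and GID1A (1.05), whose decreases were smaller at 24 h. XTH18, TET9 and OCT5 were higher at 4 h by 2.31, 2.45 and 2.91 and had changes of -0.19, 0.54 and 1.27 at 24 h. SBT3.3 had low acetone signals of 2.4, 7.03 and 0.689 at 4 h and 15, 19.4 and 13.5 at 24 h. Its CMP signals were 1407, 1221 and 1254 at 4 h and 630, 1012 and 865 at 24 h. The size of its difference therefore rests largely on low solvent signals, and no difference between the times is given here with the offset.

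The call held without each of the 12 arrays for GSTU25, AT2G41730, GSTU22, UGT73B5, CML23, NDB2, AT1G66090, STZ, BZIP60 and AT4G16563. For SBT3.3 it was lost without CMP replicate 1 of 24 h and for TUB5 without 1 of 4 arrays. For XTH18 it was lost in 6 of the 12 omissions, for TET9 and IAGLU in 8, for OCT5 and AT1G56060 in 9, for UGT87A2 in 10, for PRK and GID1A in 11, and for TUB1 and GH9B7 in all 12.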

How the results depend on the processing

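The counts of higher and lower members were recomputed under 19 other settings. No called value changed its direction. Median centring turned the median change of all members from -0.25 to 0.04 and the uncalled changes of ETFALPHA (-0.03 to 0.26), SIR (-0.24 to 0.05) and TUA1 (-0.09 to 0.20). The number higher was 1573 to 2916 and the number lower 1557 to 3902, against 2044 and 3426. The number lower was 1557 after centring each array on its median, which shifts all changes by 0.29, and 2820 after quantile normalisation, where 45.8% of called members were higher. Array quality weights gave 3623 differences between CMP and fenclorim, against 1068, and 1713 differences of the CMP change between 24 h and 4 h, against 477, and the cause was not tested. Leaving out 1 array of the acetone or CMP groups at 4 h gave 1776 to 1959 higher and 2694 to 2959 lower members, 548 to 1167 differences between the compounds (548 without CMP replicate 1 and 612 without replicate 3) and 197 to 422 differences between the times (197 without CMP replicate 1 and 203 without acetone replicate 3).

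The labels do not say whether equal replicate numbers pair the arrays. With a replicate block in the fit of all 18 arrays 1983 members were higher and 3195 lower, 945 differed between the compounds and 337 between the times, and with the block in the fit of 6 arrays 2031 were higher and 3383 lower. An offset of 18.1 added before log2, chosen after seeing the data, gave 2078 and 3645. Of the 145 genes examined for the text 139 were called, 135 of them under every setting that tested them (99 of the 145 passed the filter on all 6 arrays, and 116 remained with probe sets that passed through 1 group left out). The exceptions, AOR, EXLA2, GSTU26 and GSTU28, are described above. EXPA18 and AUR1 were not called with all 18 arrays in the fit and were called with the 6 compared arrays alone, with array weights and with the offset of 18.1. Low signals and 3 arrays per group limit what these data can show.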

Other observations

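Genes that adjoin on a chromosome gave the same and opposite directions. Of 2302 pairs of adjacent genes with both tested, 318 had both called, 86 both higher, 111 both lower and 121 in opposite directions. Higher together were SBT3.5, AT1G32950 and SBT3.3, UGT73B5 and UGT73B4, UGT73D1 and UGT73C7, GLR2.8 and GLR2.7, and AT1G76640 and CML38. Opposite were XTH18 (2.31) and XTH19 (-1.78), and GSTU25 (6.69) and GSTU26 (-2.19). Short probes of such related neighbours may share targets, and how far they do was not tested.

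Serine carboxypeptidase-like proteins, a family of acyltransferases and proteases that the text above does not describe, had 7 of 13 tested members lower and 0 higher by limma's test, also at an unadjusted p under 0.05, 4 lower and 1 higher after median centring, and 8 lower without CMP replicate 2. Histone genes had 4 of 6 lower, 2 after median centring and 3 without CMP replicate 2.

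With the members in 4 equal classes of mean signal, from dimmest to brightest, 10.2%, 10.1%, 16.3% and 21.2% were higher and 23.1%, 27.7%, 24.5% and 21.6% lower.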
